A study of Mus musculus with 2 samples.

Results

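The core glycolytic enzyme genes described here are the 9 genes Gpi1, Pfkl, Pfkp, Pfkm, Tpi1, Gapdh, Pgk1, Pgam1 and Pkm. They were chosen by symbol, with no measured value in the rule. Earlier results of these data were known when they and the gene lists below were chosen. All 9 were found as 1 row each among the 32285 genes counted in both libraries. RNA of single mouse CD8+ T cells, with lymph node as the labelled tissue, had been counted with a 10x Genomics kit that tags 3' ends (v3.1). There was 1 library labelled HC and 1 labelled NC, in a series on such cells with and without electrical stimulation delivered by the matrix. The labels do not spell out HC or NC and do not say which of them was stimulated. Cell type, tissue and kit are the same in both, and the sources used here give no strain, age, time in culture or number of animals pooled.

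Glycolysis splits glucose into pyruvate and yields ATP without oxygen. Resting T cells use it little, and T cells that have been activated through their receptor raise it as they grow and divide. The 9 genes encode the isomerase and the phosphofructokinases that prepare the sugar, the triose isomerase that follows its cleavage, and the 4 enzymes listed last, which include both steps that make ATP.

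HC cells held more RNA of every one of the 9 genes than NC cells. Summed, the genes made up 7445 CPM (unique molecular identifiers per 1000000 of the cells' total) in HC cells and 4165 CPM in NC cells, a 1.79-fold difference. The difference was not equal across the steps: Tpi1 was 2.60-fold and Pkm 2.22-fold higher in HC, while Gpi1 was 1.47-fold and Pfkp 1.47-fold higher. Across single HC cells the genes varied together, with a median correlation of 0.24 over their pairs, against 0.02 across NC cells. Cells with and without RNA of Mki67, a gene transcribed in cycling cells, showed the higher level in HC alike. No test between HC and NC was possible, since each is 1 library. Every interval below is at 95%, covers counting error only and says nothing of variation between animals or cultures.

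The cells described had 500 or more detected genes, 1000 or more unique molecular identifiers (UMIs, each marking 1 captured RNA molecule) and no more than 10% mitochondrial UMIs. They numbered 13617 of 15495 barcodes in HC, with a median of 7425 UMIs and 114430972 UMIs in all, and 13641 of 14798 barcodes in NC, with a median of 6898 UMIs and 115789139 UMIs in all. Among kept cells 49 barcodes occurred in both libraries. Doublets were not removed. The labelled cell type was borne out: 98.3% of HC cells and 98.4% of NC cells had a UMI of Cd8a or Cd8b1 and none of Cd4, and Cd4 had 2 UMIs in HC and 1 in NC. Markers of B cells summed to 16.5 CPM in HC and 35.4 CPM in NC, led by Igkc in NC and Cd79b in HC. The 6 myeloid markers summed to 2.18 CPM in HC, where Lyz2, C1qa and S100a8 were at 0, and to 4.48 CPM in NC, where C1qa was at 0. Markers of NK, dendritic, erythroid and stromal cells summed to between 0.0524 and 0.192 CPM a list in HC and between 0.0259 and 0.104 CPM in NC. Ctla4, listed for helper and regulatory T cells and also made by activated CD8+ T cells, had 166 CPM in HC and 125 CPM in NC, with Foxp3 at 2 UMIs in HC and 3 UMIs in NC. The median share of mitochondrial UMIs was 4.36% in HC and 3.93% in NC. The part of these cells in the enzyme levels was not tested. No cell population that lacks the enzymes was present, so the share of their UMIs that is free RNA is not given.

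At least 1 Mki67 UMI was seen in 9425 HC cells (69.2%) and 7285 NC cells (53.4%). Cells with Mki67 UMIs were deeper than those without. Their median was 8774 UMIs with Mki67 and 5172.5 without in HC, and 9367 with Mki67 and 5703 without in NC. The split is a detected UMI and not a cell cycle stage, and 1642 HC and 2036 NC cells lay at its edge with exactly 1 Mki67 UMI.

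The genes lie on 8 mouse chromosomes (GRCm38, GENCODE vM21). Gpi1 is at chr7:34201330-34230336 on the minus strand, Pfkl at chr10:77986947-78010083 on the minus strand, Pfkp at chr13:6579768-6648777 on the minus strand and Pfkm at chr15:98092589-98132451 on the plus strand. Tpi1 at chr6:124810586-124814296 and Gapdh at chr6:125161715-125166467, both on the minus strand, share chromosome 6. Pgk1 is at chrX:106187100-106203699, Pgam1 at chr19:41911923-41918660 and Pkm at chr9:59656368-59679375, all on the plus strand. Under names of the form gene-ps or gene-rs, the annotation lists 6 pseudogenes of Tpi1, 2 of Gapdh, 3 of Pgk1 and 2 of Pgam1. Of these, 0 are among the counted genes. Pseudogenes under other names were not searched for. The sources used here do not say how reads that match such copies were treated. The levels of these 4 genes carry that uncertainty, and those of the others may too.

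Since the genes varied together across HC cells, the 250 bases before their annotated starts were searched for ACGTG and GCGTG, the core letters that hypoxia-inducible factors recognise. Both strands were read. All 9 genes matched the RefSeq promoter table (GRCm38), with 13 windows, as Pfkm has 4 starts and Pkm has 2. A core was found in at least 1 window of 7 of the 9 genes, the exceptions being Gpi1 and Tpi1, and in 9 of the 13 windows. Of all 32851 windows of this length in the table, 38.6% held a core, 16.6% ACGTG and 28.2% GCGTG. These shares are per window, so they compare with the 9 of 13 windows and not with the 7 of 9 genes. Shown are 4 windows that lie at or just before the GENCODE gene start, 1 without a core and 3 that differ in which core they hold, with the cores of either strand in capitals. They are chr7:34230337-34230586 (minus strand) for Gpi1, chr13:6648772-6649021 (minus strand) for Pfkp, chrX:106186850-106187099 (plus strand) for Pgk1 and chr19:41911621-41911870 (plus strand) for Pgam1.
Gpi1: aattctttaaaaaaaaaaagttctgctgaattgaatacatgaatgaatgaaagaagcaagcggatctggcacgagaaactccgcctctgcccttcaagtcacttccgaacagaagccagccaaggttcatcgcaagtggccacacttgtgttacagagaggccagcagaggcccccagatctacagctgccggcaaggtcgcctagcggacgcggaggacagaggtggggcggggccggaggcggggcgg
Pfkp: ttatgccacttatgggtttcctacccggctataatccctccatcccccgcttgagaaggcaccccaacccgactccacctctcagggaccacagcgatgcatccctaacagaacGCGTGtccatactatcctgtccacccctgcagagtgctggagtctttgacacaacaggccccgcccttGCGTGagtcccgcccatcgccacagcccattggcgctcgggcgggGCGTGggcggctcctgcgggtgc
Pgk1: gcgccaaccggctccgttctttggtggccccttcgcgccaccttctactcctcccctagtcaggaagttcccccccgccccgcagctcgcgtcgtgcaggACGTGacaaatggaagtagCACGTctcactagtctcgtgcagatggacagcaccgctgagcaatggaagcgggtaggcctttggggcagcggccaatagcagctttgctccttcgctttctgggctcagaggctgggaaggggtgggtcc
Pgam1: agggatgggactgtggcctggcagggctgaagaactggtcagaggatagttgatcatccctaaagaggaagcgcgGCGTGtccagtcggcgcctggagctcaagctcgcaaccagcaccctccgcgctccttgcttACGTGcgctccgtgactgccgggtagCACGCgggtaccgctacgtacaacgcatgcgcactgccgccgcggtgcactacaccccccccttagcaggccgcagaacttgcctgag
Pgk1 held ACGTG alone, with cores starting at positions -150 and -131 when -1 is the last base before the start. Pfkp held GCGTG alone, at -136, -68 and -23. Pgam1 held both letters, at -175, -114 and -88. Of the windows not shown, Pfkl had GCGTG at -99, Gapdh had GCGTG at -54 and -44, and Pkm had ACGTG at -75 in its later window and none in its earlier one. Pfkm held a core in 3 of its 4 windows, and its first window held CACGTG, which contains ACGTG on both strands and occurs in 6.02% of all windows. The Pfkm windows with GCGTG at -149 and at -234 overlap and share that site, which is counted in both. The windows counted above are thus not all separate stretches. Tpi1, the member with the largest ratio of HC over NC, held neither set of letters, which says only that they are not in this window.

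Step by step, Gpi1 comes first. It encodes glucose phosphate isomerase, which turns glucose phosphate into fructose phosphate. Its level was 456 CPM in HC cells with Mki67 and 485 CPM in HC cells without it, against 306 CPM in NC cells with Mki67 and 331 CPM in NC cells without it. Both HC values were above both NC values, and within each library the cells with Mki67 were the lower ones. The log2 ratio of HC over NC was 0.55 in all kept cells (0.53 to 0.57), 0.57 with Mki67 and 0.55 without, and the last values differed by 0.02 (-0.02 to 0.06), within counting error.

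The next step, the phosphorylation that commits the sugar to glycolysis, is carried out by phosphofructokinase, an enzyme built of several subunits that 3 genes supply. Pfkp, the platelet-type subunit, was the main one, at 135 CPM in HC cells with Mki67 and 127 CPM in HC cells without, against 92.0 CPM in NC cells with Mki67 and 87.4 CPM in NC cells without. Pfkl, the liver-type subunit, stood at 39.8 CPM in HC cells with Mki67 and 34.4 CPM without, against 23.0 CPM in NC cells with Mki67 and 16.4 CPM without. Pfkm, the muscle-type subunit, was near the limit of detection with 469 UMIs in HC (4.10 CPM) and 317 UMIs in NC (2.74 CPM). All 3 were higher in HC, by log2 0.56 for Pfkp (0.52 to 0.59), 0.90 for Pfkl (0.83 to 0.97) and 0.58 for Pfkm (0.37 to 0.79). The mixture of subunit RNA differed slightly: Pfkl made up 22.0% of phosphofructokinase UMIs in HC (21.4% to 22.6%) and 18.2% in NC (17.6% to 18.9%), and Pfkp 75.7% in HC and 79.4% in NC. In cells without Mki67 the Pfkl share was 20.8% in HC and 15.4% in NC. Pfkl had its larger HC over NC ratio in these cells, at log2 0.79 with Mki67 and 1.07 without it, a difference of -0.27 with minus without (-0.44 to -0.10).

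Tpi1 encodes triose phosphate isomerase, which makes both products of the cleaved sugar usable by the later steps. It showed the widest spread between the 4 sets of cells. Its level was 591 CPM in HC cells with Mki67 and 424 CPM in HC cells without, against 252 CPM in NC cells with Mki67 and 141 CPM in NC cells without. The HC cells without Mki67 thus stood above the NC cells with it. The ratio of HC over NC was log2 1.38 in all kept cells (1.36 to 1.40), 1.23 with Mki67 and 1.59 without, which is 3.01-fold (2.92 to 3.11). The log2 ratio was smaller by 0.36 in cells with Mki67 (with minus without -0.36, -0.42 to -0.31).

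Gapdh, Pgk1, Pgam1 and Pkm act after the cleavage. Gapdh encodes the dehydrogenase that makes NADH and was the highest of the 9, at 3782 CPM in HC cells with Mki67 and 3670 CPM in HC cells without, against 2311 CPM in NC cells with Mki67 and 2186 CPM in NC cells without. Pgk1 encodes phosphoglycerate kinase, the earlier of the steps that make ATP, and had 1245 CPM in HC cells with Mki67 and 1226 CPM without, against 631 CPM in NC cells with Mki67 and 631 CPM without. Between cells with and without Mki67 of a library these genes differed by log2 0.04 and 0.02 in HC and by 0.08 and 0.00025 in NC, so the values separated by library and hardly by Mki67 class. The log2 ratio of HC over NC was 0.73 for Gapdh (0.72 to 0.74) and 0.98 for Pgk1 (0.96 to 0.99). Pgk1 had nearly the same ratio in both classes, 0.98 with Mki67 and 0.96 without.

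Pgam1 encodes the mutase that moves the phosphate of phosphoglycerate. It was at 374 CPM in HC cells with Mki67 and 319 CPM in HC cells without, against 244 CPM in NC cells with Mki67 and 183 CPM in NC cells without. Pkm encodes pyruvate kinase, the last step, and its splice forms are summed in a count per gene. It had 911 CPM in HC cells with Mki67 and 798 CPM in HC cells without, against 447 CPM in NC cells with Mki67 and 312 CPM in NC cells without. For both genes each HC value was above each NC value, and the cells with Mki67 were higher within each library. The log2 ratio of HC over NC was 0.70 for Pgam1 (0.68 to 0.72) and 1.15 for Pkm (1.13 to 1.16). Both ratios were smaller in cells with Mki67, at 0.62 with Mki67 and 0.80 without for Pgam1 and at 1.03 with Mki67 and 1.35 without for Pkm.

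**Figure D1:**
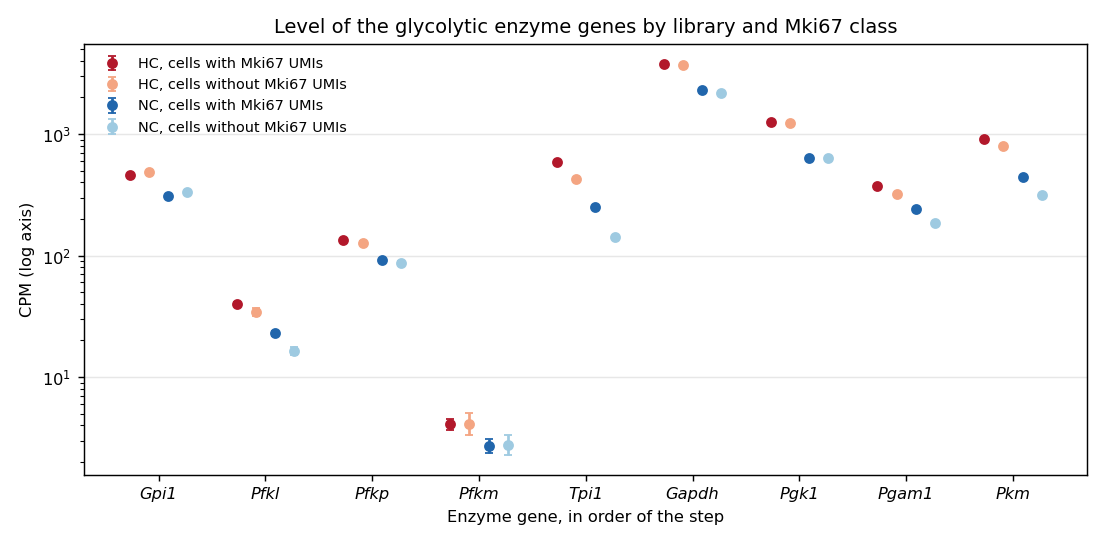
Level of each enzyme gene in CPM (log axis) in HC and NC cells with and without Mki67 UMIs, with exact Poisson 95% intervals, in most cases smaller than the point. Every HC value lies above both NC values of the same gene, and Tpi1 runs from 591 CPM in HC cells with Mki67 to 141 CPM in NC cells without it.

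Each captured molecule is counted once at its 3' end whatever its length, so transcript length does not enter the order of the levels. Other differences between genes in capture or read assignment were not tested. The order given is thus one of counted UMIs. Gapdh gave 50.5% of the UMIs of the 9 genes in HC and 54.5% in NC. Pgk1 gave 16.7% in HC and 15.1% in NC, Pkm 11.9% in HC and 9.62% in NC, and Tpi1 7.48% in HC and 5.14% in NC. Tpi1 was the fourth highest of the 9 in HC, above Gpi1 at 462 CPM and Pgam1 at 362 CPM. In NC it was the sixth, at 214 CPM (211 to 217), next to Pgam1 at 223 CPM (220 to 226) and below Gpi1 at 315 CPM. The other 8 genes held the same order in both libraries. The phosphofructokinase genes were the lowest in both, with 176 CPM in HC and 114 CPM in NC for the 3 together.

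Counted by size, 6 of the 8 members with at least 5 CPM were at least 1.5-fold higher in HC in all kept cells, where 1.93% of 8704 genes were, and 0 of 8 were at least 1.5-fold lower, where 1.47% of genes were. The same 6 passed in cells with Mki67 (background 1.78% of 8663 genes) and in cells without it (background 1.94% of 8609 genes). At 1.5-fold lower there were 0 of 8 in either class, against 1.54% of genes with Mki67 and 1.92% without. Gpi1 and Pfkp stayed just under 1.5-fold in all 3 sets, and Pfkm lay below the CPM minimum and was not counted. The median log2 ratio of the 8 members was 0.81, against -0.03 for all 8704 genes. The members were chosen with earlier results of these data known, so these figures describe them and test nothing. Ordered by ratio among these genes, Tpi1 took place 16, Pkm 26, Pgk1 40, Pfkl 52, Gapdh 102, Pgam1 114, Pfkp 194 and Gpi1 195.

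**Figure D2:**
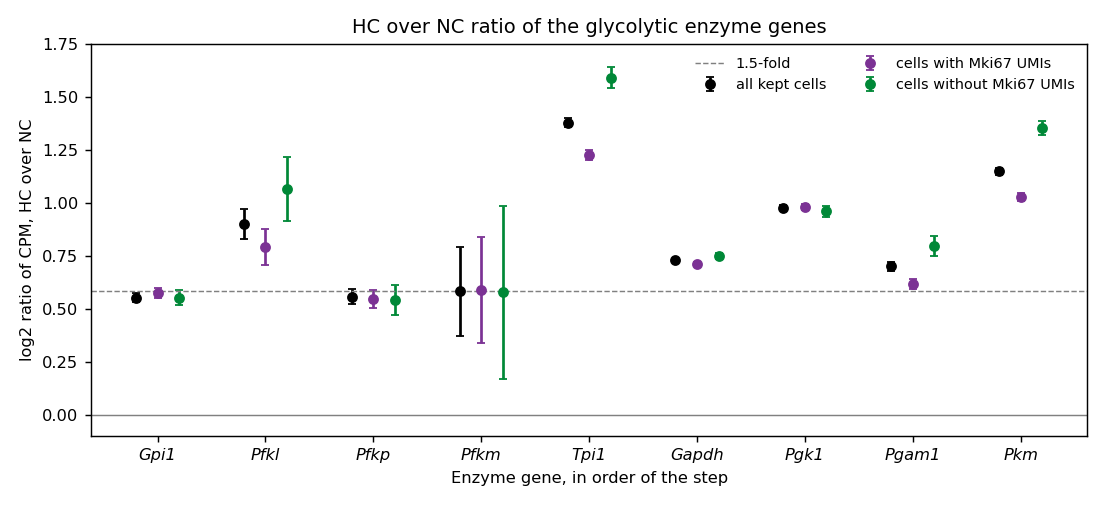
Log2 ratio of CPM, HC over NC, for each enzyme gene in all kept cells and in cells with and without Mki67 UMIs, with exact binomial 95% intervals. All 27 values lie above 0, and the ratios of Pfkl, Tpi1, Pgam1 and Pkm are larger in cells without Mki67 UMIs.

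By summed counts, the 8 members with enough counts fell into 2 kinds by how they stood to Mki67. Pfkl, Tpi1, Pgam1 and Pkm were higher in cells with Mki67 in both libraries, by log2 0.21, 0.48, 0.23 and 0.19 in HC and by 0.48, 0.84, 0.41 and 0.52 in NC, in that order. Gpi1, Pfkp, Gapdh and Pgk1 lay between -0.11 and 0.08 in both libraries. At 1.5-fold, 0 of 8 members were higher in cells with Mki67 in HC, where 11.7% of 8772 genes were, and 1 of 8, Tpi1, in NC, where 10.5% of 8744 genes were. Lower in cells with Mki67 were 0 of 8 in HC, against 3.89% of genes, and 0 of 8 in NC, against 4.33% of genes. Depth differed between the classes as given above, and its part in these differences was not tested.

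Cells were also divided by their number of Mki67 UMIs. With 0, 1, 2, 3 to 5, 6 to 10 and over 10 Mki67 UMIs, Tpi1 stood at 424, 504, 551, 572, 609 and 643 CPM in HC and at 141, 210, 250, 261, 255 and 273 CPM in NC. In both libraries most of the increase thus lay between 0 and 2 Mki67 UMIs, and the highest level was in the last class. The log2 ratio of HC over NC for the 9 genes summed was 0.87, 0.79, 0.75, 0.75, 0.83 and 0.86 over the same classes, so HC was higher in each.

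Other genes of the pathway went both ways, more of them higher in HC. Of 33 further genes listed for uptake, the remaining steps, lactate and the reverse path, 17 reached 5 CPM, and 9 of them were higher in HC by 1.5-fold or more and 1 lower, with a median log2 ratio of 0.62. Over all genes 1.93% were higher and 1.47% lower by that rule. This list too was chosen with earlier results of these data known. The higher ones included Aldoa, the aldolase between phosphofructokinase and Tpi1, at 805 CPM in HC and 338 CPM in NC, and Eno1, the enolase between Pgam1 and Pkm, at 335 CPM in HC and 194 CPM in NC. Ldha, which turns pyruvate into lactate, was at 985 CPM in HC and 642 CPM in NC, and the lactate exporter Slc16a3 at 57.7 CPM in HC and 15.0 CPM in NC. The glucose transporters Slc2a1 (23.3 CPM in HC, 10.9 CPM in NC) and Slc2a3 (53.0 CPM in HC, 31.5 CPM in NC) were also higher in HC. The rest of the 9 were Hk2, a hexokinase (8.43 CPM in HC, 5.27 CPM in NC), the aldolase Aldoc (40.3 CPM in HC, 8.78 CPM in NC) and Eno1b, whose reads may be shared with Eno1 (21.3 CPM in HC, 7.51 CPM in NC). In cells with Mki67 7 of the 17 were higher (1.78% of all genes) and 1 lower (1.54%), and in cells without it 9 were higher (1.94%) and 0 lower (1.92%). Of the 17, 12 had a ratio above 0. Below it, at less than 1.5-fold, were the enolase Eno3 (21.0 CPM in HC, 28.4 CPM in NC), Minpp1 (21.4 CPM in HC, 26.7 CPM in NC), the lactate transporter Slc16a1 (16.6 CPM in HC, 20.6 CPM in NC) and Bpgm (9.32 CPM in HC, 10.9 CPM in NC). The one lower by 1.5-fold was Adpgk, whose enzyme phosphorylates glucose with ADP, at 5.29 CPM in HC and 8.16 CPM in NC. Paralogues of the members were all but silent: Pklr and Pgk2 were at 0 in both libraries, Pgam2 had 1 UMI in each and Gapdhs had 0.122 CPM in HC and 0.0950 CPM in NC.

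The share of cells with a UMI was compared after thinning each cell to 2000 UMIs, which left out 94 HC and 133 NC cells. Gapdh was then seen in 99.4% of HC cells (99.2% to 99.5%) and 98.1% of NC cells (97.9% to 98.3%), so it marked nearly every cell of both libraries. Pgk1 was seen in 84.3% of HC and 67.7% of NC cells, Pkm in 70.1% of HC and 47.9% of NC cells, and Tpi1 in 50.6% of HC and 27.8% of NC cells. Without thinning the Tpi1 share was 78.9% in HC and 61.2% in NC, and the Pkm share 92.7% in HC and 83.2% in NC. The direction was the same for Gpi1, Pgam1 and Pfkp: Gpi1 was seen in 57.2% of HC and 46.5% of NC cells, Pgam1 in 42.7% of HC and 31.0% of NC cells, and Pfkp in 20.9% of HC and 15.4% of NC cells. Pfkl was seen in 6.91% of HC cells (6.48% to 7.35%) and 3.46% of NC cells (3.16% to 3.78%). Unthinned, the shares for HC and NC were 91.3% and 86.3% for Gpi1, 76.7% and 67.5% for Pgam1, 55.4% and 46.4% for Pfkp and 24.0% and 14.4% for Pfkl, with Gapdh at 99.96% and 99.86% and Pgk1 at 97.7% and 93.9%. Pfkm was seen, after thinning, in 0.776% of HC cells (0.635% to 0.939%) and 0.555% of NC cells (0.437% to 0.695%), intervals that overlap.

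The higher level in HC was not carried by all cells to the same degree. Each cell was thinned to 5000 UMIs, which kept 10697 HC and 10125 NC cells. The 9 genes together then had a median of 31 UMIs per cell in HC, with 15 at the 5th and 76 at the 95th percentile. In NC the median was 20 UMIs, with 11 at the 5th and 32 at the 95th percentile. HC was thus above NC at both ends, and further above it at the high end. The standard deviation over cells was 19.2 UMIs in HC and 6.58 UMIs in NC, and the variance over the mean was 9.97 in HC and 2.14 in NC, where independent counting alone gives a value near 1. Of HC cells 53.0% held more than 29 UMIs, the 90th percentile of NC, against 8.23% of NC cells. In cells without Mki67 57.8% of HC and 8.84% of NC cells exceeded the corresponding NC value of 27 UMIs, and in cells with Mki67 53.3% of HC and 9.79% of NC cells exceeded 29 UMIs. Thinning to this depth left out 1922 of the 4192 HC cells and 2194 of the 6356 NC cells without Mki67, so those shares describe the deeper cells.

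**Figure D3:**
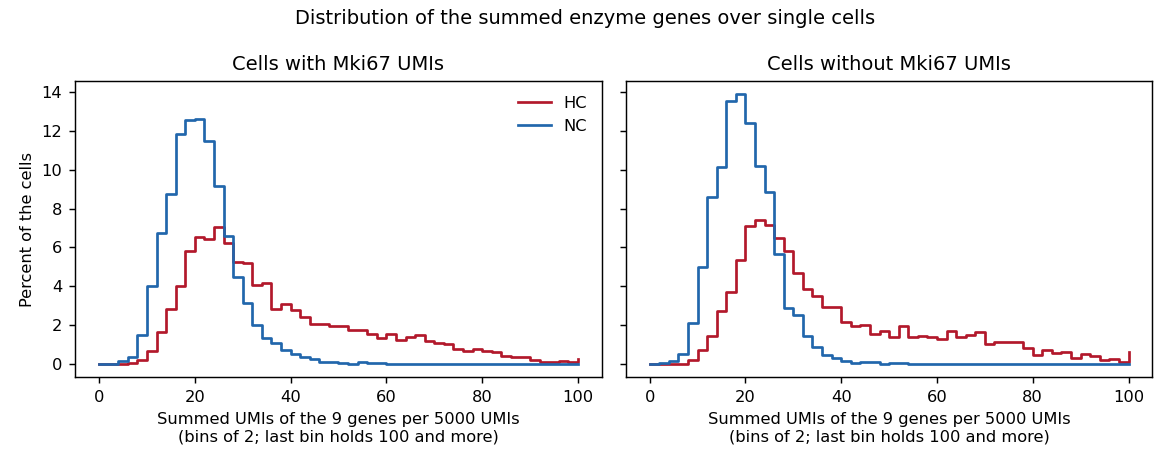
Percent of cells by the summed UMIs of the 9 enzyme genes per 5000 UMIs, HC and NC, in cells with and without Mki67 UMIs (bins of 2, the last one holding 100 and more). NC forms a narrow peak around 20 UMIs, and HC is shifted to its right, low end included, and extends in a long right tail in both panels.

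Variation between cells beyond counting, given as the squared coefficient of variation after the counting part is removed, was larger in HC for most of the genes. It was 0.152 in HC and 0.0354 in NC for Gpi1, and 0.204 in HC and 0.0564 in NC for Gapdh. For Pkm it was 0.434 in HC and 0.252 in NC, and for Pgk1 0.262 in HC and 0.144 in NC. Over cells of both Mki67 classes together, Tpi1 varied about as much among NC cells, with 0.650 in HC and 0.643 in NC. Within each class it was larger in HC. The values were 0.605 in HC and 0.512 in NC with Mki67, and 0.835 in HC and 0.684 in NC without it. These are descriptions of cells from 1 library each, with no interval.

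Across single HC cells the enzymes were correlated with each other. Pearson's r of log1p UMIs, over the 36 pairs of the 9 genes at 5000 UMIs per cell, had a median of 0.24 in HC (n = 10697 cells, range -0.0027 to 0.59) and 0.02 in NC (n = 10125 cells, range -0.04 to 0.24). Gapdh with Pkm was the highest pair in HC, at 0.59 in HC and 0.12 in NC, and Tpi1 with Pkm the highest in NC, at 0.56 in HC and 0.24 in NC. Pairs with Pfkm lay between -0.0027 and 0.02 in HC and between -0.02 and 0.01 in NC, where its mean of 0.0186 UMIs per thinned HC cell and 0.0132 per thinned NC cell leaves little to correlate. Cells of a library share its preparation and, after thinning, the same depth, and no p-value applies to them. A lower count lowers r, so HC counts of each gene were also thinned to its NC mean: over the 28 pairs without Pfkm the median was then 0.20 in HC and 0.04 in NC, and r was higher in HC in 28 of 28 pairs.

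**Figure D4:**
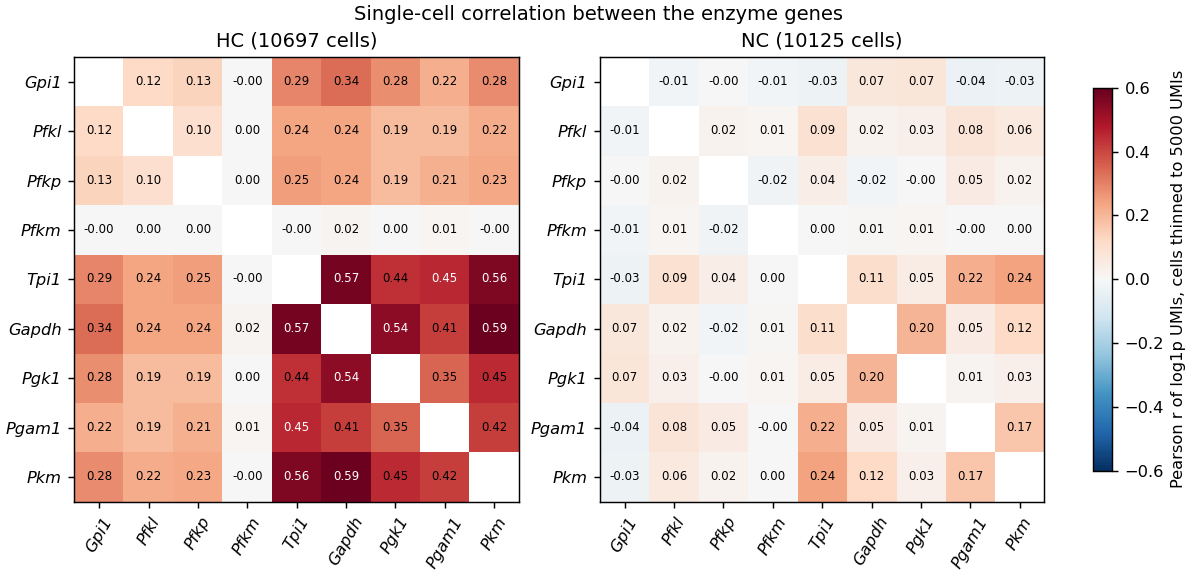
Pearson's r of log1p UMIs for each pair of enzyme genes over HC cells (left) and NC cells (right), each cell thinned to 5000 UMIs. HC values between Tpi1, Gapdh, Pgk1, Pgam1 and Pkm range from 0.35 to 0.59, and in NC the highest is 0.24, for Tpi1 with Pkm.

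The weak pattern in NC was not uniform. Pairs among Pfkl, Tpi1, Pgam1 and Pkm, by summed counts the genes higher in cells with Mki67, had a median r of 0.33 in HC and 0.13 in NC. Pairs among Gpi1, Gapdh and Pgk1 had a median of 0.34 in HC and 0.07 in NC, and pairs between these sets 0.32 in HC and 0.02 in NC. In HC the 3 medians were thus close, while in NC the median across the sets was the lowest. Single NC pairs overlapped: Gapdh with Pkm, a pair across the sets, had 0.12, and Gpi1 with Gapdh, a pair within a set, had 0.07. In cells without Mki67 the same medians were 0.35, 0.34 and 0.32 in HC and 0.11, 0.07 and -0.01 in NC, so the NC pattern was also seen in cells without Mki67 UMIs. Counting noise lowers r, more so at the lower NC counts. Corrected for it over all cells, the 3 medians were 0.95, 0.86 and 0.84 in HC and 0.84, 0.61 and 0.15 in NC. The corrected HC and NC values thus lay nearer each other within the sets than between them. These sets were formed after the correlations had been seen, and support nothing on their own. Pfkp, which lay with Gpi1, Gapdh and Pgk1 by its level in cells with and without Mki67, was in neither set: in NC its r was -0.02 with Gapdh and -0.0044 with Pgk1, and 0.04 with Tpi1 and 0.05 with Pgam1.

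Gene by gene, the relation to the rest of the pathway was followed by placing cells of each library in 5 equal bins. Bins were cut by the summed UMIs of the other 8 genes within that library, so they cover unlike ranges. For Tpi1 that sum averaged 16.3 UMIs in the lowest and 62.6 UMIs in the highest HC bin, against 11.5 and 28.5 UMIs in NC. Gapdh gave 50.5% of the UMIs of the 9 genes in HC and 54.5% in NC, so it weighs most in the sums for the other genes. Tpi1 averaged 0.955 UMIs in the lowest and 6.01 UMIs in the highest bin of HC cells, a 6.29-fold span, and 0.680 and 1.40 UMIs in those of NC cells, a 2.05-fold span. Pfkl spanned 6.63-fold in HC and 1.64-fold in NC, and Pkm 4.35-fold in HC and 1.62-fold in NC. Pfkp spanned 2.60-fold in HC and 1.01-fold in NC, so its mean hardly differed between the outer bins of NC, and Gpi1 spanned 2.22-fold in HC and 1.14-fold in NC. Gapdh spanned 2.59-fold in HC and 1.30-fold in NC, Pgk1 2.83-fold in HC and 1.43-fold in NC, and Pgam1 3.67-fold in HC and 1.45-fold in NC. In the lowest HC bin, relative to the mean of all NC cells, Gpi1 and Tpi1 stood at 1.03, Pfkp at 1.01, Gapdh and Pkm at 1.08, Pgk1 at 1.21, Pgam1 at 0.915 and Pfkl at 0.679. In the highest HC bin Gpi1 stood at 2.29, Tpi1 at 6.46, Pfkp at 2.63 and Pfkl at 4.51 times that mean. Bin for bin HC was above NC for Tpi1 in each of the 5 bins, while Pfkl in the lowest bin had 0.0631 UMIs in HC and 0.0760 UMIs in NC.

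**Figure D5:**
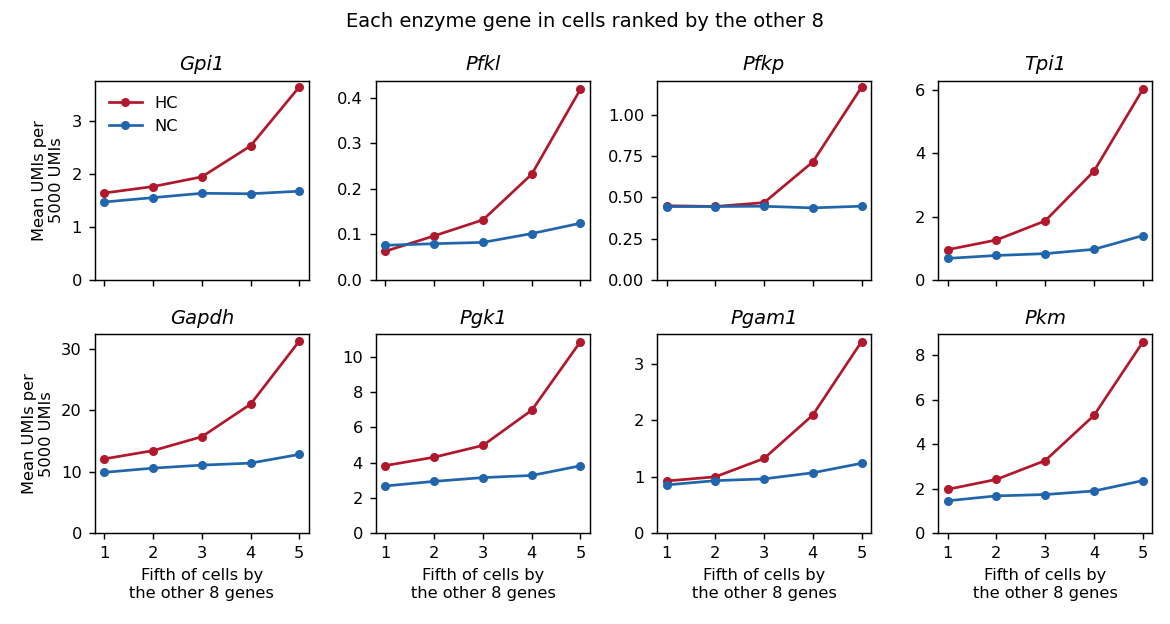
Mean UMIs per 5000 UMIs of 8 enzyme genes in cells placed in 5 bins by the sum of the other 8 members, HC and NC, with linear axes starting at 0 and a scale for each gene. Bins were cut within each library and cover unlike ranges of that sum. HC lines bend upward in the last bins, and NC lines stay flat (Pfkp, 1.01-fold) or climb slightly (Tpi1, 2.05-fold).

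The genes whose single-cell pattern was most like that of the 9 enzymes were sought among those with at least 20 CPM, outside the lists of the pathway, of hypoxia-inducible factor targets and of growth and division genes. The list of targets held only 10 genes, so genes named here may be targets too. In HC (4837 genes, 10697 cells) the 10 highest r with the summed enzymes were those of Mif at 0.56, Fam162a at 0.50, Bsg at 0.44, Galk1 and H2-Ab1 at 0.35, Mt1 and Higd1a at 0.34, Bnip3l at 0.33, and Hsp90ab1 and Gzmb at 0.30. Mif encodes a cytokine, Bsg a chaperone of lactate transporters, and Gzmb the protease granzyme B of killer cells. In NC (4884 genes, 10125 cells) they were those of Mif at 0.28, Hsp90ab1 and Ybx1 at 0.24, Eif5a at 0.23, Nme1 at 0.21, Ppia, Ranbp1 and Nme2 at 0.20, and Rps2 and Hsp90aa1 at 0.19. Mif led both lists and Hsp90ab1 was in both. The median r over all genes was -0.0066 in HC and -0.0040 in NC. Of the other pathway genes, r was 0.68 in HC and 0.23 in NC for Aldoa, 0.60 in HC and 0.24 in NC for Ldha, and 0.51 in HC and 0.21 in NC for Eno1. It was 0.40 in HC and 0.09 in NC for Slc16a3, and near 0 in HC for others, such as Slc16a1 at 0.02 in HC and 0.04 in NC and Bpgm at -0.04 in HC and 0.01 in NC. The lowest r were those of Ms4a4b at -0.25 and the mitochondrially encoded mt-Co3 at -0.24 in HC, and of Malat1 at -0.23 and mt-Co1 at -0.20 in NC. All these values are descriptions over cells that share a library and a thinned depth, in which a larger share of UMIs for some genes leaves less for others.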

How the data were processed

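Single CD8+ T cells were profiled in 1 HC and 1 NC library. The authors deposited raw UMI counts for each gene in each barcode, which Cell Ranger 6.1.2 wrote, per the file headers. The build mm10, Seurat 3.2.3 and Cell Ranger 5.0.0 appear in the submitters' processing notes without a stated role. The sources used here give neither the annotation release nor how barcodes were selected.

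Counts of kept cells (at least 500 genes, at least 1000 UMIs, at most 10% mitochondrial UMIs) were summed per library and divided by the total to give CPM, with no pseudocount. Intervals were exact: Poisson for CPM, binomial (Clopper-Pearson) for shares and, conditional on the total, for ratios, at 95%. They cover counting error only. Intervals of differences between log2 ratios were not exact but used a normal approximation from the Poisson counts behind both ratios. With 1 library per group no test was run. Genes with at least 5 CPM in either set of cells compared were counted at 1.5-fold. Cells were thinned without replacement to 2000 UMIs for shares and to 5000 UMIs for distributions and correlations. No doublet caller was run. Genes were named by a fixed rule: the members, the lists given, and the 10 genes with at least 20 CPM that correlate highest with the summed members in each library, with those of lowest r added after their values were seen. The members and lists were chosen with earlier results of these data known. Alternatives changed scaling (TMM from edgeR 4.0.16, size factors from DESeq2 1.42.0, for scaling only), cell weights, depth, cell filters, the Mki67 split, the fold and the correlation measure. The ratio, thinning and correlation steps were tested on simulated data. Scripts ran under R 4.3.3 and Python 3.11.15 (matplotlib 3.10.9, pandas 2.3.3, scipy 1.17.1, numpy 2.4.6).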

Additional observations from a re-analysis of the deposited data

How the results depend on the processing

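All 27 member ratios (9 genes in 3 sets of cells) stayed above 0 under the alternatives run, 297 values in all, of which 0 reversed. The 1.5-fold counts of 6 moved to at most 8, the value with at most 5% mitochondrial UMIs in all kept cells and in cells without Mki67, where Gpi1 and Pfkp also passed. At 2-fold the count was 2 in all kept cells (Tpi1 and Pkm), 2 in cells with Mki67 and 3 in cells without it. Median r, 0.24 in HC and 0.02 in NC, was 0.125 in HC and 0.0117 in NC at 2000 UMIs, 0.287 in HC and 0.0538 in NC without thinning, and 0.821 in HC and 0.197 in NC when corrected for counting noise. It was 0.225 in HC and 0.0375 in NC with Mki67, 0.249 in HC and 0.00801 in NC without it, and 0.233 in HC and 0.0257 in NC at 5% mitochondrial UMIs. Spearman's rho was 0.229 in HC, and thinning HC counts to NC means gave 0.157 over all 36 pairs, those with Pfkm included. That last setting, leaving out the deepest 5% of cells and leaving out shared barcodes were chosen after seeing the data. HC was above NC in each setting run for both. The cause of these shifts was not tested, except that fewer UMIs lower r by construction. No paired analysis was possible because each group has 1 library, and none could be left out. At this depth Pfkm gave too few UMIs for its correlations or its ratio to be read closely.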

Other observations

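Of 10 targets of hypoxia-inducible factors outside glycolysis, 9 reached 5 CPM and 7 of these were at least 1.5-fold higher in HC, where 1.93% of all genes were. The list was chosen with earlier results of these data known, so the count is a description. Bnip3, which acts in removal of mitochondria, was at 43.3 CPM in HC and 9.11 CPM in NC, and Ankrd37 at 43.7 CPM in HC and 13.2 CPM in NC. Their r with the summed enzymes over single cells at 5000 UMIs was 0.41 in HC and 0.04 in NC for Bnip3, and 0.34 in HC and 0.06 in NC for Ankrd37. Egln1, an oxygen-sensing prolyl hydroxylase, had 0.33 in HC and 0.06 in NC. Ddit4 had 0.10 in HC and -0.05 in NC, and Kdm3a 0.06 in HC and -0.0088 in NC, so members of the list differed widely.

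Among 10 growth and division genes r with the summed enzymes was higher in HC for 2, Myc at 0.05 in HC and 0.0026 in NC and Npm1 at 0.27 in HC and 0.25 in NC, and lower in HC for the other 8. Of these, Ncl, a nucleolar protein gene, had 0.05 in HC and 0.17 in NC, Nolc1 -0.0019 in HC and 0.10 in NC, and Pcna, the replication clamp, 0.02 in HC and 0.11 in NC. Mki67 itself had -0.09 in HC and -0.02 in NC. All of these are over cells of both Mki67 classes. Among cells with Mki67 UMIs alone, Mki67 had -0.118 in HC and -0.175 in NC, and Npm1 0.282 in HC and 0.284 in NC. Both thus stood in the opposite order there, while the other genes of the list kept theirs. These are weak correlations in sparse counts, and the difference between libraries was not tested.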
